A study of Mus musculus with 24 samples.

Results

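The 42 genes described here encode effector proteins of neutrophils and monocytes, and they were listed by name for that function. They fall into 4 primary granule genes, 8 secondary and tertiary granule genes, 4 genes of the phagocyte oxidase, 17 surface receptor genes and 9 other effector genes, and they stand among 21627 protein-coding mouse genes on chromosomes 1 to 19 and X. The study used chromatin immunoprecipitation sequencing (ChIP-seq) of 4 mouse leukaemia lines, each made by a fusion of the nuclear pore gene NUP98 to HOXA9, HOXD13, JARID1A or NSD1. Cells received VTP50469, an inhibitor that keeps menin from binding MLL1, a histone methyltransferase, or its solvent DMSO. The question was how the inhibitor alters the binding of this complex in leukaemia cells.

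The 14 lists of enriched regions form 7 pairs of VTP50469 and DMSO, with 1 library per condition. MLL1 was mapped in NUP98-HOXA9 cells (2 µM VTP50469 or DMSO, 72 h), in the NUP98-HOXD13 and NUP98-JARID1A lines (2 µM VTP50469 or DMSO, 96 h) and in NUP98-NSD1 cells (200 nM VTP50469 per the sample label, or DMSO, 96 h). Menin was mapped in NUP98-HOXA9 and NUP98-HOXD13 cells, and H3K4me3, the trimethyl mark on lysine 4 of histone H3, in the NUP98-HOXA9 line, in each case with 2 µM VTP50469 or DMSO for 96 h. All cultures, DMSO included, grew with the mouse cytokines IL-3, IL-6 and SCF, so every value below is from cells kept in growth factors. The labels name each line by its fusion and do not say whether a line is 1 clone, nor how the fusion was expressed. Since every condition is 1 library, no replicate spread exists, the differences below carry no test, and they compare these libraries.

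Neutrophil precursors fill their granules in waves. The primary (azurophilic) granules are loaded first, at the promyelocyte stage, with myeloperoxidase and serine proteases. The secondary and tertiary granules follow at later stages with lactoferrin, antimicrobial peptides and matrix metalloproteinases, while many receptors for chemoattractants and microbes mark more mature cells. The surface receptor class used here is not of that stage alone, since Ms4a3 is a membrane protein of granulocyte and monocyte progenitors. MLL1 places H3K4me3 near start sites of genes, and menin is the adaptor that ties MLL1 to chromatin at many of its targets. NUP98 fusion leukaemias are held at an immature stage, with high HOXA cluster and MEIS1 expression.

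A gene was counted as having a region when a listed region lay within 1 kb of either annotated end, and its covered length is the number of bases that regions took of its span plus 2 kb on both sides. A region at a gene end is called lost when only the DMSO list had it and gained when only the VTP50469 list had it. The lists differ in length, which bears on every comparison: MLL1 lists held 21739 regions with VTP50469 and 22534 with DMSO in NUP98-HOXA9, 14744 and 20154 in NUP98-HOXD13, 24950 and 15765 in NUP98-JARID1A, and 1036 and 7113 in NUP98-NSD1. Menin lists of the NUP98-HOXA9 line held 403 regions with VTP50469 and 9050 with DMSO, those of the NUP98-HOXD13 line held 16706 and 18826, and the H3K4me3 lists held 9567 and 9443. Sequencing depth is unknown from these files, and its part in the length of a list was not tested. The cells are labelled mouse leukaemia. Of 50 other neutrophil and monocyte genes, 32 had MLL1 at an end in NUP98-HOXA9 with VTP50469 and 33 with DMSO, where 45.0% of all genes had it in each list. Of genes marking other lineages, 2 of 19 lymphoid, 2 of 16 erythroid and megakaryocyte and 1 of 10 mast cell and basophil genes had it in each list. H3K4me3 was at an end of 18 of the 50 genes with VTP50469 and 14 with DMSO, against 38.7% and 37.2% of all genes, and of 0 lymphoid, 2 erythroid and megakaryocyte and 1 mast cell and basophil genes in each list.

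MLL1 was present at these genes in 3 of the 4 lines at shares near or above those of all genes. With VTP50469 it was at an end of 27 of the 42 genes in NUP98-HOXA9 cells, against 23 with DMSO, and at 18 against 20 in NUP98-HOXD13 cells. The NUP98-JARID1A line had it at 27 with VTP50469 and 19 with DMSO, and the NUP98-NSD1 line at 0 and 5. Among all protein-coding genes the shares in the same order of lines were 45.0%, 40.6%, 47.4% and 3.60% with VTP50469, against 45.0%, 45.6%, 41.2% and 22.1% with DMSO. The effector genes thus had MLL1 at 64.3% with VTP50469 and 54.8% with DMSO in NUP98-HOXA9, above all genes, and at 0% with VTP50469 and 11.9% with DMSO in NUP98-NSD1, below them. In NUP98-HOXD13 the shares were 42.9% with VTP50469 and 47.6% with DMSO, near those of all genes. In NUP98-JARID1A they were 64.3% with VTP50469, above all genes, and 45.2% with DMSO, near them. No gene had MLL1 at an end in all 4 VTP50469 lists, while Prtn3, Cyba and Tlr4 had it in all 4 DMSO lists. At the other extreme, 6 genes had no region of any target in any of the 14 lists: Olfm4 (a tertiary granule protein), the formyl peptide receptors Fpr1 and Fpr2, the lysozyme Lyz1, the chitinase-like protein Chil3 and the resistin family member Retnlg. The chemokine receptor Cxcr2 and the neutrophil surface antigen Ly6g, named here so that every gene is accounted for, had some covered bases but no region at an end in any list. The same held for Mmp9, Cybb and Cd33. At Cd33 the start site (43533171) lies inside the annotated span (43527399 to 43537424), more than 1 kb from either end. MLL1 regions overlapped the promoter window there, described below, in 3 VTP50469 and 3 DMSO lists, which the counts at gene ends do not include.

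**Figure D1:**
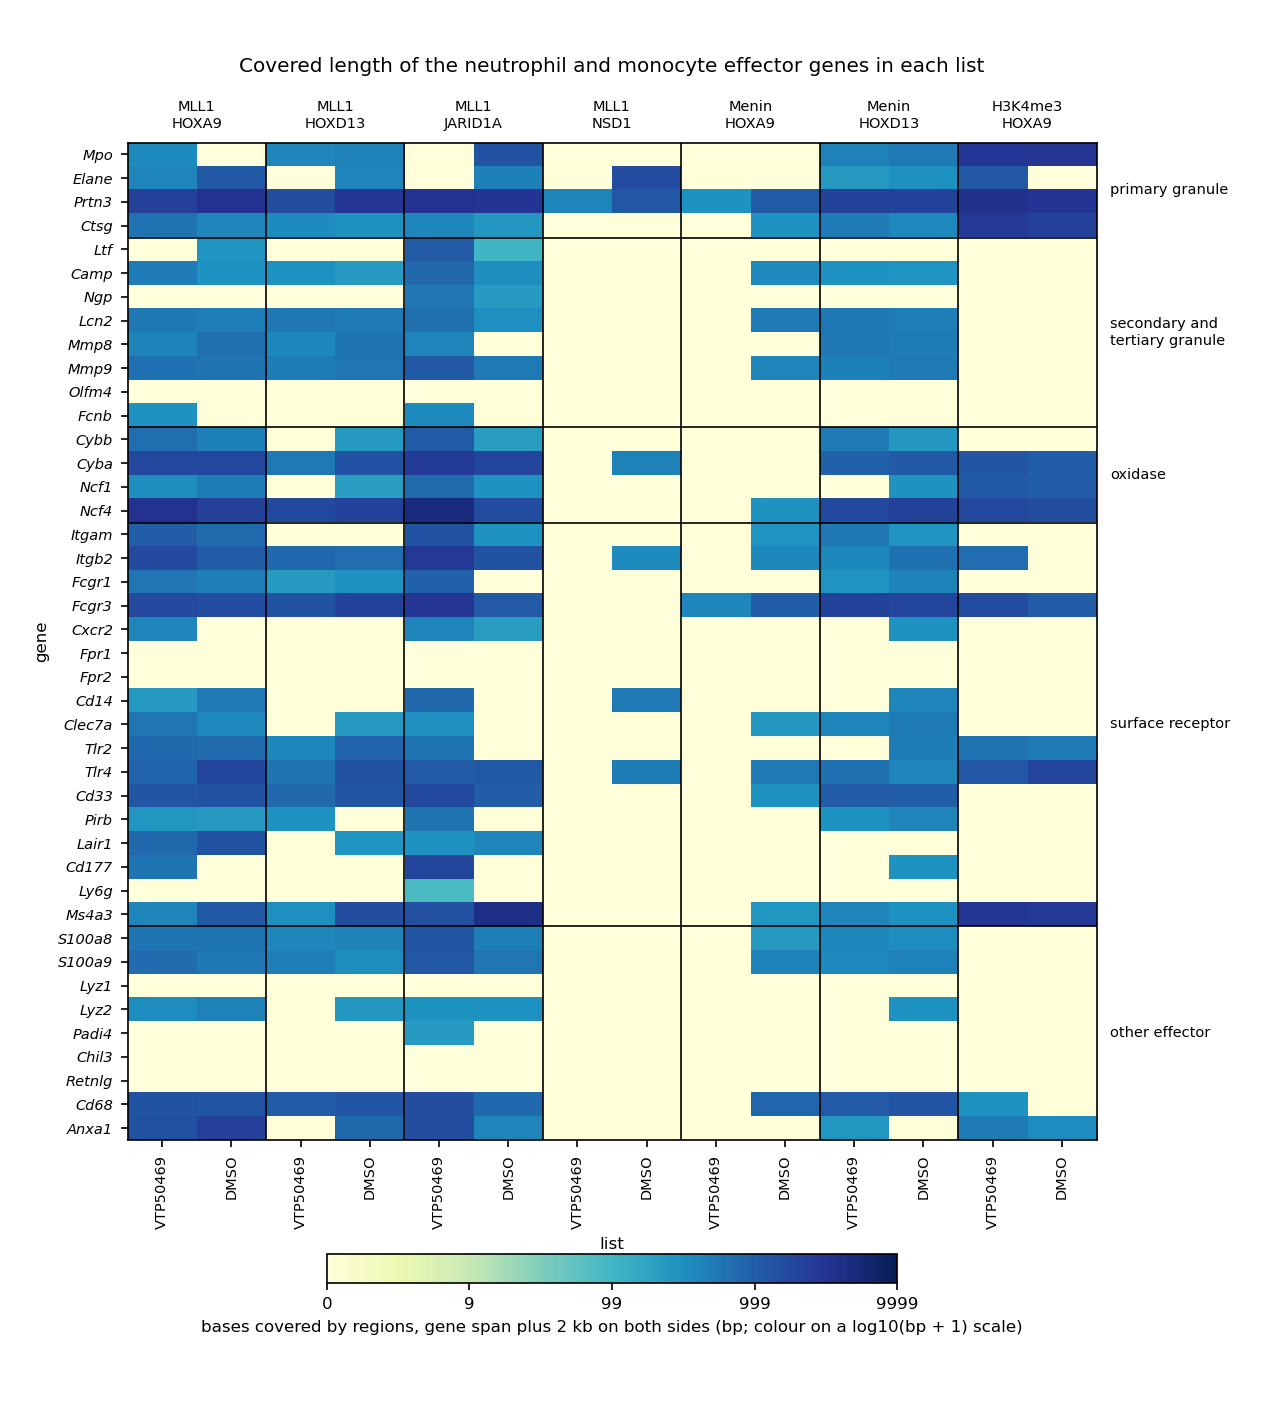
Bases covered by regions over each of the 42 genes (rows, grouped by class) in each of the 14 lists (columns, VTP50469 left of DMSO in each pair), with colour on a log10(bp + 1) scale. The NUP98-NSD1 columns are nearly empty, the 8 secondary and tertiary granule genes have no H3K4me3 in either list, and Mpo has 0 bp of MLL1 with VTP50469 and 1370 bp with DMSO in NUP98-JARID1A.

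Most of these genes have promoters that hold few CpG dinucleotides, the sequence that the CXXC domain of MLL1 recognises when unmethylated. In NUP98-HOXA9, 22 of 37 genes had a region within 1 kb of the start site with VTP50469 (59.5%) and 20 with DMSO (54.1%), against 47.3% and 47.5% of 17273 genes. At 15 and 14 of the effector genes the summit lay 1 to 300 bp upstream. Summit positions were not counted over all genes, so these counts have no background beside them. RefSeq promoter windows of 300 bases (250 before the start site to 50 after it, GRCm38.p6, the patch release of mm10) were matched for 37 of the 42 genes. These windows held a median of 3 CpG, against 14 over 17273 genes, and 31 of the 37 (83.8%) held 5 or fewer, against 32.0% of all genes. Over those windows with 5 or fewer CpG, MLL1 regions overlapped 45.2% of the 31 effector genes with VTP50469 and 51.6% with DMSO in NUP98-HOXA9, against 4.65% and 4.92% of 5528 genes with such windows. In NUP98-HOXD13 the shares were 32.3% with VTP50469 and 45.2% with DMSO for the effector genes, against 2.70% and 4.41% for all genes. In NUP98-JARID1A they were 54.8% with VTP50469 and 35.5% with DMSO, against 5.25% and 3.20%. In NUP98-NSD1 none of the 31 windows was overlapped in either list, and 0.127% with VTP50469 and 0.977% with DMSO of all such windows were. Windows with 16 or more CpG, of which the effector genes have 0, were overlapped at 74.9% with VTP50469 and 75.1% with DMSO in NUP98-HOXA9. Effector genes are named for their use in myeloid cells, and the comparison with all genes does not take expression into account.

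**Figure D2:**
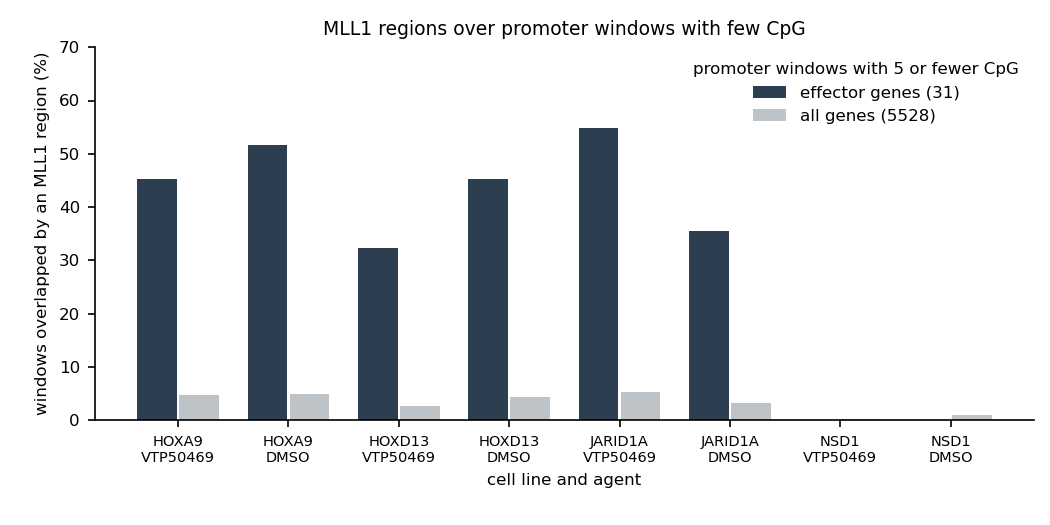
Share of promoter windows with 5 or fewer CpG that an MLL1 region overlapped (%), for the 31 effector genes (dark) and for all 5528 genes with such windows (light), in each of the 8 MLL1 lists, VTP50469 left of DMSO in each line. In NUP98-JARID1A the effector genes reach 54.8% with VTP50469 and 35.5% with DMSO, and both NUP98-NSD1 lists are at 0.

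The promoters of 6 genes are shown because MLL1 regions overlapped their windows in some lists and not in others, and because all are poor in CpG: Mpo (chr11:87793534-87793783, plus strand), Lcn2 (chr2:32387740-32387989, minus strand), Ngp (chr9:110419558-110419807, plus strand), Cd177 (chr7:24760312-24760561, minus strand), Ms4a3 (chr19:11640852-11641101, minus strand) and S100a9 (chr3:90695722-90695971, minus strand). Each is the 250 bases before the start site in GRCm38.p6, 5′ to 3′ on the strand of the gene, and capitals mark CpG. These 6 were picked among the genes that met this criterion after their values were seen.

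Mpo: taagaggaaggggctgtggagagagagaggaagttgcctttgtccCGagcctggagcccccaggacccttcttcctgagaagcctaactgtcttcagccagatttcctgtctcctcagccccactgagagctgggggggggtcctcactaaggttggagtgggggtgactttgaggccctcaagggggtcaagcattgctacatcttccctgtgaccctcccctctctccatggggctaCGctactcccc

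Lcn2: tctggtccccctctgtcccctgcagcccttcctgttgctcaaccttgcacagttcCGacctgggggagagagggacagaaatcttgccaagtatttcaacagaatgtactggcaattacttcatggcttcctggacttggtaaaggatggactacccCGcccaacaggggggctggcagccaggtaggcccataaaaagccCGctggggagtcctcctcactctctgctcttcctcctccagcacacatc

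Ngp: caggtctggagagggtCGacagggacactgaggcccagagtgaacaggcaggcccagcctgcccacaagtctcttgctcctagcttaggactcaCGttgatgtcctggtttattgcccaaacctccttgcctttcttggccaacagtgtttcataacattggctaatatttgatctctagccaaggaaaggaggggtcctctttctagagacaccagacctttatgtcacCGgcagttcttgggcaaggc

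Cd177: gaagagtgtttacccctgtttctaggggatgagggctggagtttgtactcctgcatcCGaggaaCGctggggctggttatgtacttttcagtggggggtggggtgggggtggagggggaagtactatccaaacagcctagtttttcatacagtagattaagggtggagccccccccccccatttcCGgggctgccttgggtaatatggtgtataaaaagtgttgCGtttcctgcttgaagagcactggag

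Ms4a3: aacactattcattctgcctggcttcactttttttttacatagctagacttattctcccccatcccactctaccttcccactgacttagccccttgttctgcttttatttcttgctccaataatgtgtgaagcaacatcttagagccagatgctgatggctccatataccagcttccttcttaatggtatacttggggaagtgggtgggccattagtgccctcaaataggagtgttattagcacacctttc

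S100a9: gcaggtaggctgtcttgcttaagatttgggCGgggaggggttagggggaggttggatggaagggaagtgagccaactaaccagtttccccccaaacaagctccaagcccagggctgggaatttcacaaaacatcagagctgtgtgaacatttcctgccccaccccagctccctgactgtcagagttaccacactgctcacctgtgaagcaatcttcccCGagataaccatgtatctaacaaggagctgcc

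The Ms4a3 stretch holds 0 CpG and the Mpo and S100a9 stretches 2 each, yet MLL1 overlapped the Ms4a3, S100a9 and Lcn2 windows in both lists of NUP98-HOXA9, NUP98-HOXD13 and NUP98-JARID1A. The Ngp window was overlapped only in the 2 NUP98-JARID1A lists, the Cd177 window only in NUP98-JARID1A with VTP50469, and the Mpo window in both NUP98-HOXD13 lists and in NUP98-HOXA9 with VTP50469. Motifs of 3 factors known to act at myeloid promoters were searched on both strands of the 300 bases: TTGCNNAA for C/EBP proteins, GAGGAA for PU.1 and TGTGGT for RUNX proteins, and no match of one is also a match of another. The C/EBP letters were in 14 of 37 effector windows (37.8%) and in 10.3% of all windows, the PU.1 letters in 24 (64.9%) and 27.2%, and the RUNX letters in 7 (18.9%) and 14.9%. By class, the C/EBP letters were in 0 of 4 primary granule, 5 of 7 secondary and tertiary granule, 0 of 3 oxidase, 4 of 14 surface receptor and 5 of 9 other effector windows. The PU.1 letters were in 4 of 4, 4 of 7, 1 of 3, 12 of 14 and 3 of 9 windows in the same order. In the stretches above, Ngp has TTGCCCAA at -138 to -131 and TTGGGCAA (the C/EBP letters on the other strand) at -11 to -4 from the start site, Lcn2 has TTGCTCAA at -216 to -209, S100a9 has TTGCTTAA at -236 to -229, and Mpo has GAGGAA at -247 to -242 and at -224 to -219. Lcn2 also has TTCCTC (the PU.1 letters on the other strand) at -20 to -15, and Cd177 has GAGGAA at -192 to -187. S100a9 also has ACCACA (the RUNX letters on the other strand) at -64 to -59. A match is a description of the letters and not a measured binding site.

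**Figure D3:**
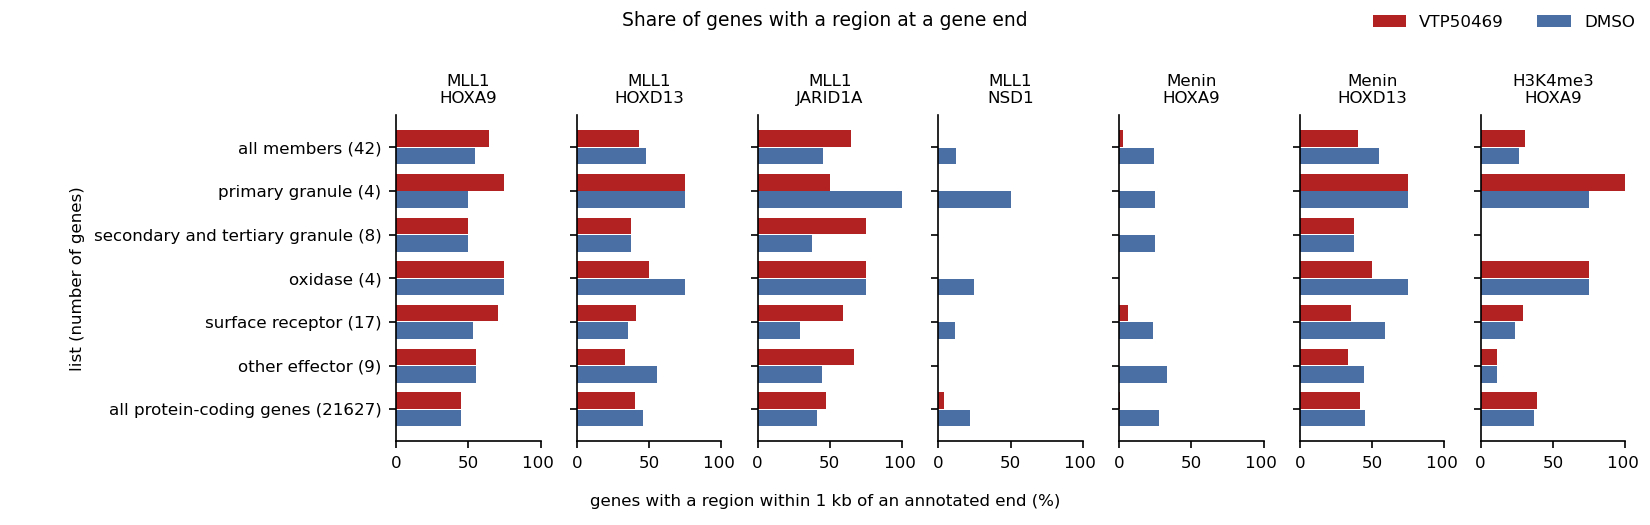
Share of genes with a region within 1 kb of an annotated end (%), by class of effector gene and for all 21627 protein-coding genes, in each of the 7 pairs, with VTP50469 (red) above DMSO (blue). Primary granule genes stand at 50% with VTP50469 and 100% with DMSO for MLL1 in NUP98-JARID1A, where secondary and tertiary granule genes stand at 75% and 37.5%.

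In NUP98-JARID1A the granule classes differed in summed MLL1 length, although the primary granule genes were split among themselves. MLL1 was gained at 11 of the 23 effector genes without it in DMSO (47.8%), where 11.3% of all genes were gained, and lost at 3 of 19 (15.8%), where 1.01% of all genes were lost. The gains were Ltf, Mmp8, Fcnb, Itgb2, Fcgr1, Cd14, Tlr2, Pirb, Cd177, Padi4 and Anxa1, and the losses were Mpo, Elane and Lair1. Summed over the 42 genes, MLL1 covered 40930 bp with VTP50469 and 22937 bp with DMSO (178% of DMSO), against 131% over all genes. Of the 36 genes covered in either list, 30 (83.3%) were longer with VTP50469 and 6 (16.7%) shorter, where 76.9% and 23.0% of all genes were, so the share of longer genes lay near the background. Of the 26 genes covered in DMSO, 14 (53.8%) had at least 200% of their DMSO length, against 19.3% of all genes covered in DMSO, and 3 (11.5%) had at most 50%, against 2.51%. By class the VTP50469 length was 68.6% of DMSO for primary granule genes, 330% for secondary and tertiary granule genes, 227% for oxidase genes, 179% for surface receptor genes and 234% for other effector genes. The surface receptor value leans on Ms4a3, which alone held 1453 of 17313 bp with VTP50469 and 4188 of 9675 bp with DMSO. Of the primary granule genes, Mpo and Elane were shorter and Prtn3 and Ctsg longer, while all 7 covered secondary and tertiary granule genes were longer. With the longer list cut to the length of the shorter by its q values, the 2 granule classes stood at 55.0% and 257%, against 108% over all genes, but the gains went down to 5 (Ltf, Mmp8, Itgb2, Fcgr1 and Cd177) and the losses went up to 6 (Ctsg, Ncf1 and Lyz2 were added), where 3.85% and 10.4% of all genes were. After that cut the 42 genes together stood at 132% of DMSO and the surface receptor genes at 128%. Of the 42 genes, 20 were then longer with VTP50469 and 10 shorter.

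Among the primary granule genes, Mpo encodes myeloperoxidase, and Elane, Prtn3 and Ctsg encode the serine proteases neutrophil elastase, proteinase 3 and cathepsin G. Mpo lies on chromosome 11 at 87793784 to 87804412 on the plus strand. In NUP98-JARID1A it had 0 bp of MLL1 with VTP50469 and 1370 bp with DMSO, all of it in the gene body from 828 to 2197 bp after the start site. In NUP98-HOXA9 it had 361 bp with VTP50469 and 0 bp with DMSO, and in NUP98-HOXD13 397 bp with VTP50469 and 449 bp with DMSO, and these regions lay instead just before the start site, with summits at -230 bp in NUP98-HOXA9, and at -216 bp with VTP50469 and -141 bp with DMSO in NUP98-HOXD13. NUP98-NSD1 had none at Mpo in either list. Mpo was therefore gained in NUP98-HOXA9, kept in NUP98-HOXD13 and lost in NUP98-JARID1A, at different places of the gene.

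Elane and Prtn3 are neighbours on chromosome 10, with 3137 bp between them, so their flanks share some regions. Elane (79886312 to 79888216, plus strand) had 0 bp with VTP50469 and 461 bp with DMSO in NUP98-JARID1A, 0 bp and 1625 bp in NUP98-NSD1, 0 bp and 401 bp in NUP98-HOXD13, and 395 bp and 1135 bp in NUP98-HOXA9. Its length was shorter with VTP50469 in all 4 lines, although with lists of equal length it was 0 bp in both NUP98-NSD1 lists. In NUP98-HOXA9 and NUP98-HOXD13, MLL1 covered 0 bp of Elane within 500 bp of its start site and in its body with either agent. Its lengths there lay in its flanks, where bases shared with Prtn3 count for both genes and in the class sums. With shared bases counted once, the 42-gene total fell from 21447 bp to 21046 bp in NUP98-HOXD13 with DMSO. In NUP98-HOXA9 it fell from 27697 bp to 27302 bp with VTP50469 and from 28700 bp to 27837 bp with DMSO. Prtn3 (79879667 to 79883174, plus strand) had 3164 bp with VTP50469 and 3099 bp with DMSO in NUP98-JARID1A, 2279 bp and 3395 bp in NUP98-HOXA9, 1510 bp and 3046 bp in NUP98-HOXD13, and 397 bp and 1167 bp in NUP98-NSD1. Each of the 8 MLL1 lists held a Prtn3 region whose summit lay at -1631 to -1687 bp from the start site. That region had a fold enrichment of 62.3 in NUP98-HOXA9 with VTP50469 (percentile 99.3 of its list) and 30.3 with DMSO (percentile 94.7), the fold values being the authors' own. In NUP98-NSD1 it was the only MLL1 left near any of the 42 genes with VTP50469, 397 bp wide, and it lies outside the 1 kb window, so Prtn3 counts there as lost.

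Ctsg (chromosome 14, 56099885 to 56102574, minus strand) differed from both: it had 396 bp with VTP50469 and 262 bp with DMSO in NUP98-JARID1A, 607 bp and 392 bp in NUP98-HOXA9, and 357 bp and 300 bp in NUP98-HOXD13, all across the start site. The VTP50469 length was the longer in these 3 full-list comparisons. With lists of equal length, Ctsg had 0 bp with VTP50469 and 262 bp with DMSO and Prtn3 had 2854 bp and 3099 bp in NUP98-JARID1A, so all 4 primary granule genes were then shorter with VTP50469 in that line. NUP98-NSD1 had no region at Ctsg in either list.

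The secondary and tertiary granule genes encode lactoferrin (Ltf), cathelicidin (Camp), neutrophilic granule protein (Ngp), lipocalin 2 (Lcn2), the metalloproteinases Mmp8 and Mmp9, olfactomedin 4 (Olfm4) and ficolin B (Fcnb). In NUP98-JARID1A, 7 of the 8 had more MLL1 with VTP50469, 0 had less, and Olfm4 had none, where 76.9% of all covered genes were longer. Ltf (chromosome 9, 111019292 to 111042766, plus strand) had 1092 bp with VTP50469 and 101 bp with DMSO, and only the VTP50469 list held a region at its start site, with the summit at -88 bp. Camp (chromosome 9, 109847377 to 109849456, minus strand) had 784 bp with VTP50469 and 332 bp with DMSO, with summits at -148 bp and -167 bp. Ngp (chromosome 9, 110419808 to 110423012, plus strand) had 581 bp with VTP50469 and 228 bp with DMSO, and no MLL1 region in any other line. At Camp and Ngp a wider region with VTP50469 lay over the narrower one with DMSO, with the summits of both lists close together.

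Lcn2 (chromosome 2, 32384637 to 32387739, minus strand) had 668 bp with VTP50469 and 324 bp with DMSO, Mmp9 had 1132 bp and 537 bp, and Mmp8 had 409 bp and 0 bp, the Mmp8 region lying 9147 bp after the start site, near the far end of the gene. Fcnb had 352 bp with VTP50469 and 0 bp with DMSO. The same genes differed less elsewhere. In NUP98-HOXA9 the class had 2410 bp with VTP50469 and 2321 bp with DMSO (104% of DMSO), with Fcnb gained (291 bp against 0 bp) and Ltf lost (0 bp against 274 bp). In NUP98-HOXD13 it had 1739 bp with VTP50469 and 1909 bp with DMSO (91.1%), with none lost or gained, and in NUP98-NSD1 it had 0 bp in both lists. The NUP98-HOXD13 value depends on the lists: it was 104% with regions at a −log10 q of at least 5 alone and 161% with lists of equal length. Camp had 500 bp with VTP50469 and 298 bp with DMSO in NUP98-HOXA9, and 307 bp and 229 bp in NUP98-HOXD13. Lcn2 had 558 bp with VTP50469 and 480 bp with DMSO in NUP98-HOXA9, and 554 bp and 505 bp in NUP98-HOXD13. Mmp8 had less with VTP50469 in both, with 425 bp against 651 bp in NUP98-HOXA9 and 381 bp against 602 bp in NUP98-HOXD13, and Mmp9 was nearly level, with 636 bp against 618 bp and 497 bp against 573 bp.

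**Figure D4:**
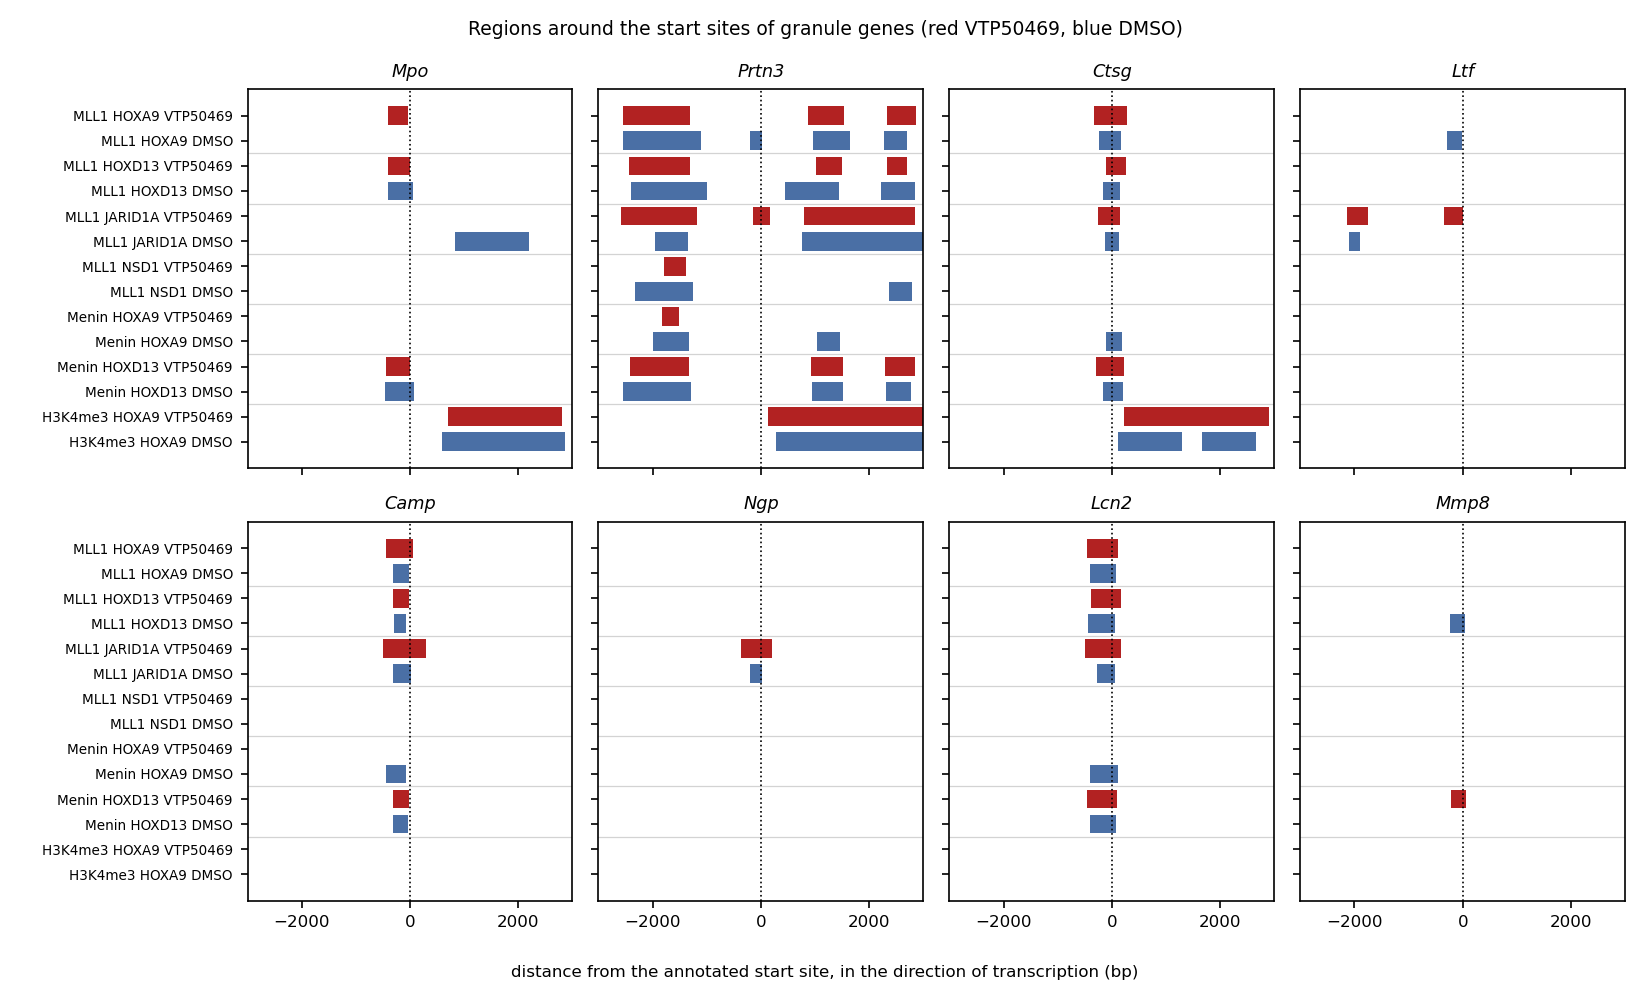
Regions of MLL1, Menin and H3K4me3 around the annotated start site (distance in bp, in the direction of transcription) at 3 primary granule genes (Mpo, Prtn3, Ctsg) and 5 secondary and tertiary granule genes (Ltf, Camp, Ngp, Lcn2, Mmp8), 1 row per list with VTP50469 (red) above DMSO (blue). H3K4me3 lies downstream of the start site at the primary granule genes and is not listed at the other 5, and the MLL1 regions of Camp, Ngp and Lcn2 lie at the start site or just before it.

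The oxidase genes encode the catalytic subunit of the phagocyte NADPH oxidase (Cybb), its membrane partner (Cyba) and the cytosolic subunits Ncf1 and Ncf4. In NUP98-JARID1A all 4 had more MLL1 with VTP50469, where 76.9% of all covered genes did: Ncf4 had 4713 bp with VTP50469 and 1574 bp with DMSO, Cyba 2615 bp and 1927 bp, Cybb 1062 bp and 217 bp, and Ncf1 744 bp and 303 bp. Ncf1 turned with lists of equal length, at 0 bp with VTP50469 and 303 bp with DMSO. In NUP98-HOXD13 all 4 had less, where 88.5% of all covered genes did: Ncf4 had 1748 bp with VTP50469 and 2071 bp with DMSO, Cyba 534 bp and 1287 bp, Cybb 0 bp and 243 bp, and Ncf1 0 bp and 217 bp. NUP98-HOXA9 was split, with Ncf4 at 3377 bp with VTP50469 and 2268 bp with DMSO, Cybb at 675 bp and 457 bp, Cyba at 1780 bp and 1799 bp, and Ncf1 at 327 bp and 502 bp. In NUP98-NSD1 only Cyba was covered, with 0 bp with VTP50469 and 438 bp with DMSO.

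Among the surface receptors of NUP98-JARID1A, 12 of 17 had more MLL1 with VTP50469 and 3 had less. The 12 are 80.0% of the 15 covered in either list, near the 76.9% of all covered genes. Cd177, a glycoprotein of the neutrophil surface (chromosome 7, 24743983 to 24760334, minus strand), had 1965 bp with VTP50469 and 0 bp with DMSO, in 3 regions with summits at -1104, 19 and 6648 bp from the start site. It also had 593 bp with VTP50469 and 0 bp with DMSO in NUP98-HOXA9, and none in the other 2 lines. Itgb2, the beta chain of the leukocyte integrins, had 2655 bp with VTP50469 and 1297 bp with DMSO in NUP98-JARID1A, and its strongest region there had a fold of 105 with VTP50469, at percentile 100 of its list, while the region at the same place with DMSO had a fold of 26.6, at percentile 98.0. Itgb2 counted as gained in 3 lines because a region newly reached an end: it had 1661 bp with VTP50469 and 1046 bp with DMSO in NUP98-HOXA9, and 784 bp and 686 bp in NUP98-HOXD13. Its partner Itgam had 1371 bp with VTP50469 and 300 bp with DMSO in NUP98-JARID1A, 1032 bp and 727 bp in NUP98-HOXA9, and none in NUP98-HOXD13 or NUP98-NSD1.

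The Fc receptor gene Fcgr1 had 926 bp with VTP50469 and 0 bp with DMSO in NUP98-JARID1A, and Fcgr3 had 2962 bp and 1102 bp. The lipopolysaccharide co-receptor Cd14 had 778 bp with VTP50469 and 0 bp with DMSO, and the Toll-like receptor Tlr2 had 595 bp and 0 bp. Pirb, an inhibitory receptor, had 603 bp with VTP50469 and 0 bp with DMSO, Cd33, a sialic acid receptor, had 1770 bp and 1024 bp, and Clec7a, the beta-glucan receptor, had 322 bp and 0 bp. Cd14, Tlr2 and Pirb had 0 bp in both NUP98-JARID1A lists when these were cut to equal length. Tlr4 was nearly level, with 1105 bp with VTP50469 and 1149 bp with DMSO. The exceptions were Lair1, an inhibitory collagen receptor, with 303 bp with VTP50469 and 398 bp with DMSO, and Ms4a3, a membrane protein of granulocyte and monocyte progenitors.

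Ms4a3 (chromosome 19, 11629499 to 11640851, minus strand) had less MLL1 with VTP50469 in the full lists of 3 lines. It had 1453 bp with VTP50469 and 4188 bp with DMSO in NUP98-JARID1A, 400 bp and 1127 bp in NUP98-HOXA9, and 318 bp and 1531 bp in NUP98-HOXD13. The difference lay in the gene body. From more than 500 bp after the start site to the far end of the gene, MLL1 covered 909 bp with VTP50469 and 3592 bp with DMSO in NUP98-JARID1A, 0 bp and 744 bp in NUP98-HOXA9, and 0 bp and 1267 bp in NUP98-HOXD13. Within 500 bp of the start site it covered 544 bp with VTP50469 and 596 bp with DMSO, 400 bp and 383 bp, and 318 bp and 264 bp in the same 3 lines. The NUP98-HOXD13 difference did not hold under other lists: at a −log10 q of at least 5, Ms4a3 had 318 bp with VTP50469 and 264 bp with DMSO there, and with lists of equal length 318 bp and 0 bp. In the other 2 lines it was shorter with VTP50469 under both.

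The same division was made for the 34 effector genes with a single start site. In NUP98-JARID1A, MLL1 within 500 bp of the start site was 227% of DMSO (12157 bp with VTP50469, 5366 bp with DMSO), against 126% over 14512 genes, and in the gene body 115% (11639 bp and 10105 bp), against 129%. The body value leans on Ms4a3, which alone held 909 bp of it with VTP50469 and 3592 bp with DMSO. For the primary granule genes the body length was 51.1% of DMSO (2041 bp with VTP50469, 3992 bp with DMSO) and the length near the start site 191% (706 bp and 370 bp). Of the 706 bp, 396 bp lay at Ctsg and 310 bp at Prtn3. The total lengths of both genes turned to shorter with VTP50469 in lists of equal length, for which this division was not made. For the secondary and tertiary granule genes the length near the start site was 310% of DMSO (2736 bp and 884 bp). In NUP98-HOXA9 the effector genes had 96.8% of DMSO near the start site and 93.6% in the body, against 92.2% and 56.3% over all genes. In NUP98-HOXD13 they had 71.2% and 37.7%, against 72.0% and 37.1%.

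Among the other effectors, S100a8 and S100a9 encode the calcium-binding subunits of calprotectin. S100a9 (chromosome 3, 90692630 to 90695721, minus strand) had 1161 bp of MLL1 with VTP50469 and 569 bp with DMSO in NUP98-JARID1A, 701 bp and 545 bp in NUP98-HOXA9, and 479 bp and 334 bp in NUP98-HOXD13, so the VTP50469 length was the longer in all 3. Its region in NUP98-JARID1A with VTP50469 had a fold of 68.8 (percentile 99.6 of its list), and that with DMSO a fold of 21.7 (percentile 95.1). S100a8 had 1241 bp with VTP50469 and 480 bp with DMSO in NUP98-JARID1A, 583 bp and 587 bp in NUP98-HOXA9, and 395 bp and 423 bp in NUP98-HOXD13. Cd68, a macrophage lysosomal protein, had 1492 bp with VTP50469 and 772 bp with DMSO in NUP98-JARID1A, 1315 bp and 1201 bp in NUP98-HOXA9, and 1058 bp and 1226 bp in NUP98-HOXD13, part of it in a region that also lies at the start site of Mpdu1. Padi4, which citrullinates histones, had 229 bp with VTP50469 and 0 bp with DMSO, its only region in any list. Anxa1, which encodes annexin A1, had 1489 bp with VTP50469 and 394 bp with DMSO in NUP98-JARID1A, 0 bp and 753 bp in NUP98-HOXD13, and 1407 bp and 2222 bp in NUP98-HOXA9. Anxa1 with lists of equal length had 326 bp with VTP50469 and 394 bp with DMSO in NUP98-JARID1A, so its direction there turned. Lyz2, the lysozyme of macrophages, was nearly level in NUP98-JARID1A, with 293 bp with VTP50469 and 312 bp with DMSO, and had 346 bp and 445 bp in NUP98-HOXA9 and 0 bp and 259 bp in NUP98-HOXD13.

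**Figure D5:**
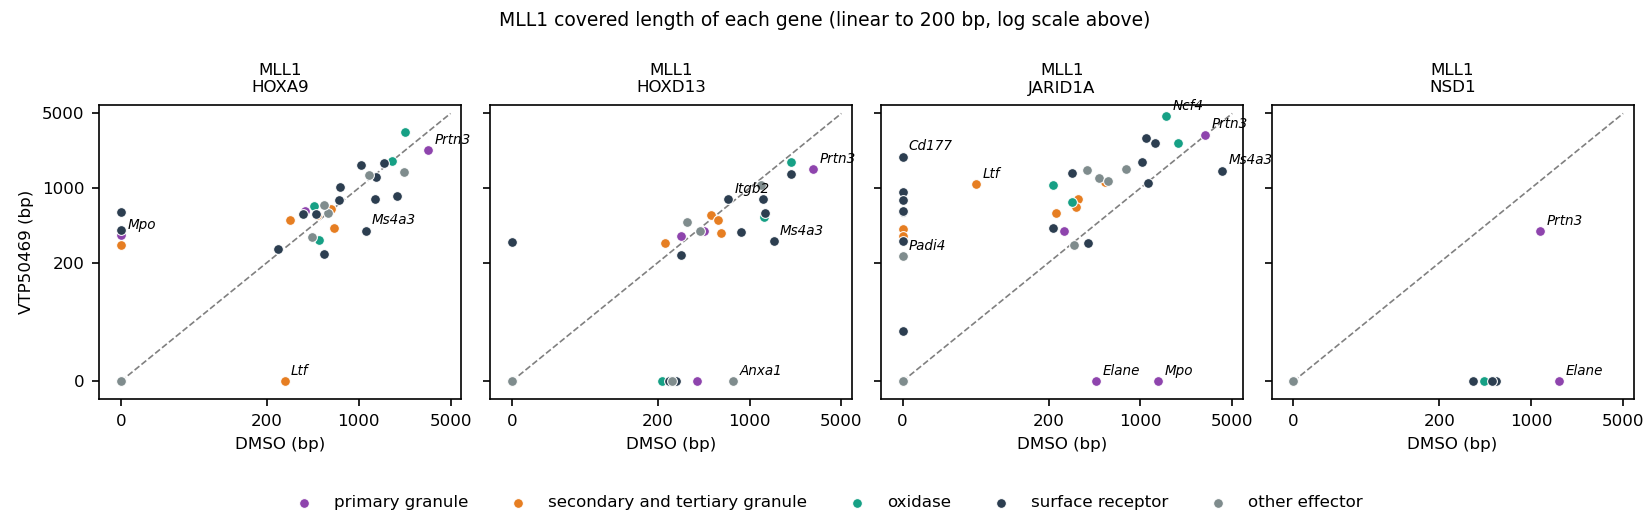
MLL1 covered length of each of the 42 genes with VTP50469 (vertical axis, bp) against DMSO (horizontal axis, bp) in the 4 lines, with axes linear to 200 bp and logarithmic above, points coloured by class and the dashed line marking equal lengths. In NUP98-JARID1A most genes lie above the line and Mpo, Elane and Ms4a3 below it, and in NUP98-NSD1 every gene but Prtn3 is at 0 with VTP50469.

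In NUP98-HOXA9 the total MLL1 length of the 42 genes was 27697 bp with VTP50469 and 28700 bp with DMSO (96.5%), against 76.6% over all genes. MLL1 was gained at 5 of the 19 genes without it in DMSO (26.3%), where 3.34% of all genes were gained, and lost at 1 of 23 (4.35%), where 3.93% of all genes were lost. The gains were Mpo, Fcnb, Itgb2, Clec7a and Cd177, and the loss was Ltf. Clec7a had 575 bp with VTP50469 and 376 bp with DMSO. Of the 33 genes covered in either list, 19 (57.6%) were longer with VTP50469 and 14 (42.4%) shorter, where 40.0% and 59.8% of all genes were. Of the 29 genes covered in DMSO, 5 (17.2%) had at most 50% of their DMSO length, against 12.8% of all genes, and 0 had at least 200%, against 1.88%. The primary granule genes stood at 74.0% of DMSO, the oxidase genes at 123% and the surface receptors at 97.4%. The lower primary granule value lay in the flanks of Elane and Prtn3, while Mpo and Ctsg were longer with VTP50469. Within 500 bp of the start site the primary granule genes had 156% of DMSO (968 bp and 619 bp). In the gene body they had 108% (1193 bp and 1106 bp). Values of the other receptors named above were 574 bp with VTP50469 and 475 bp with DMSO for Fcgr1, 1711 bp and 1550 bp for Fcgr3, 241 bp and 541 bp for Cd14, 770 bp and 703 bp for Tlr2, 842 bp and 1963 bp for Tlr4, 1271 bp and 1352 bp for Cd33, 266 bp and 244 bp for Pirb, and 796 bp and 1327 bp for Lair1. Of these 8 receptors, Cd14, Tlr4, Cd33 and Lair1 were shorter with VTP50469 and the other 4 longer. Counting the gene span without its flanks, the 42 genes stood at 101% of DMSO, so their total did not have a settled direction.

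In NUP98-HOXD13 the summed MLL1 length of the effector genes lay near that of all genes in the full lists. It was 60.5% of DMSO (12970 bp with VTP50469, 21447 bp with DMSO), against 58.3%. At a −log10 q of at least 5 it was 67.5%, against 60.1%, and with lists of equal length 79.8%, against 66.7%. MLL1 was lost at 4 of 20 genes (20.0%), where 12.2% of all genes were lost, and gained at 2 of 22 (9.09%), where 1.04% of all genes were gained. The losses were Ncf1, Lair1, Lyz2 and Anxa1, with Lair1 at 0 bp with VTP50469 and 274 bp with DMSO, and the gains were Itgb2 and Pirb, with Pirb at 310 bp and 0 bp. Of the 26 genes covered in DMSO, 12 (46.2%) had at most 50% of their DMSO length, against 30.4% of all genes, and of the 27 covered in either list 21 (77.8%) were shorter and 6 (22.2%) longer, where 88.5% and 11.4% of all genes were. Receptors with less MLL1 included Fcgr3 (1348 bp with VTP50469, 2056 bp with DMSO), Tlr4 (588 bp and 1303 bp), Tlr2 (384 bp and 867 bp) and Cd33 (786 bp and 1270 bp). The losses are sensitive to the length of the lists: with lists of equal length, 0 of the 42 genes were lost and 6 gained, where 7.37% and 2.88% of all genes were.

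In NUP98-NSD1, MLL1 was lost at all 5 genes that had it in DMSO, where 86.2% of all genes were lost, and the covered length was 397 bp with VTP50469 and 4627 bp with DMSO (8.58%), against 9.40% over all genes. The 5 genes were Elane, Prtn3, Cyba, Cd14 (0 bp with VTP50469, 540 bp with DMSO) and Tlr4 (0 bp and 500 bp). None was gained, where 0.712% of all genes were gained. The DMSO list of this line had no MLL1 at any secondary or tertiary granule gene, nor at S100a8 or S100a9. With lists of equal length, which keeps only the strongest DMSO regions, 1 gene was lost, where 65.8% of all genes were, and the length was 31.9% of DMSO. The dose of 200 nM, the line and the short lists cannot be told apart here.

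Menin could be set beside MLL1 in 2 lines. In NUP98-HOXA9 cells, 1 effector gene had Menin at an end with VTP50469 and 10 with DMSO, and 9 of the 10 were lost, where 96.6% of all genes were lost. Those lost were Ctsg, Camp, Lcn2, Itgam, Tlr4, Ms4a3, S100a8, S100a9 and Cd68, and Fcgr3 alone was kept, with 394 bp with VTP50469 and 1030 bp with DMSO. Lcn2 had 0 bp of Menin with VTP50469 and 522 bp with DMSO, and S100a9 had 0 bp and 428 bp. All 10 genes had MLL1 at an end in NUP98-HOXA9 with DMSO, where 99.5% of all genes with Menin did, and all of the 9 that lost Menin still had MLL1 at an end with VTP50469, where 3.93% of all genes lost MLL1. The first count lies near its background. The second lies near the share over all genes with MLL1 in DMSO, and the share among genes that lost Menin was not counted. The MLL1 libraries of this line were taken at 72 h and the Menin libraries at 96 h, so the 2 proteins were not mapped at the same time point. The Menin length over the 42 genes was 696 bp with VTP50469 and 7505 bp with DMSO (9.27%), against 2.57% over all genes. None was gained, where 0.0256% of all genes were gained. With lists of equal length 1 gene was lost and 1 gained, where 60.0% and 0.533% of all genes were, and the length was 58.4% of DMSO. That cut leaves only the strongest DMSO regions by construction.

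In NUP98-HOXD13 cells Menin stayed at most of these genes, with 17 having it at an end with VTP50469 and 23 with DMSO. It was lost at 6 of the 23 (26.1%), where 8.75% of all genes were lost, and gained at 0 of 19, where 1.11% of all genes were gained. The losses were Ncf1 (0 bp with VTP50469, 290 bp with DMSO), Itgb2 (386 bp and 641 bp), Cd14 (0 bp and 395 bp), Clec7a (398 bp and 518 bp), Tlr2 (0 bp and 498 bp) and Lyz2 (0 bp and 298 bp). Of the 6, 4 are surface receptors, a class that held 10 of the 23 genes with Menin in DMSO. No granule gene lost Menin in this line, but only 3 primary granule and 3 secondary and tertiary granule genes had it in DMSO. With so few genes, 0 losses cannot be told from the 8.75% of all genes. The primary granule genes had 98.7% of their DMSO length and the secondary and tertiary granule genes 105%. The length was 88.7% over the 42 genes and 79.0% over all genes. Of the 23 genes with Menin in DMSO, 18 had MLL1 there too (78.3%), against 95.9% of all genes with Menin, and of 20 with MLL1, 90.0% had Menin, against 94.5% of all genes with MLL1. In this line MLL1 at the primary granule genes was 54.0% of DMSO while Menin was 98.7%, with Prtn3 at 2049 bp of Menin with VTP50469 and 2074 bp with DMSO. The MLL1 value leans on Prtn3, at 1510 bp of MLL1 with VTP50469 and 3046 bp with DMSO. Elane had 0 bp and 401 bp of MLL1, Mpo 397 bp and 449 bp, and Ctsg 357 bp and 300 bp. Within 500 bp of the start site the class had 93.0% of its DMSO length of MLL1.

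H3K4me3, mapped in NUP98-HOXA9 cells alone, was at an end of 38.7% of all genes with VTP50469 and 37.2% with DMSO. Among the effector genes it was at an end of 4 of 4 primary granule genes with VTP50469 and 3 of 4 with DMSO, of 3 of 4 oxidase genes in both lists, of 5 and 4 of 17 surface receptor genes, of 1 of 9 other effector genes in both, and of 0 of 8 secondary and tertiary granule genes in both. In that line, 4 of those 8 had MLL1 at an end with VTP50469 and 4 with DMSO. Of the effector genes with MLL1 at an end, 12 of 27 (44.4%) also had H3K4me3 with VTP50469 and 10 of 23 (43.5%) with DMSO, against 81.1% and 79.8% of all genes with MLL1. These shares do not take CpG content into account, and 83.8% of the effector promoter windows held 5 or fewer CpG. Over all genes, H3K4me3 overlapped 0.597% of such windows with VTP50469 and 0.525% with DMSO. For windows with 16 or more CpG the shares were 38.4% and 34.4%. The MLL1 and H3K4me3 libraries differ in time, at 72 h and 96 h.

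H3K4me3 covered 22195 bp of the 42 genes with VTP50469 and 18358 bp with DMSO (121%), against 108% over all genes. It was gained at 2 of 31 genes (6.45%), where 4.64% of all genes were gained, and lost at 0 of 11, where 3.95% of all genes were lost. The gains were Elane, with 1134 bp with VTP50469 and 0 bp with DMSO, and Itgb2, with 689 bp and 0 bp. Mpo had 2842 bp with VTP50469 and 2946 bp with DMSO, Prtn3 had 3564 bp and 3110 bp, Ctsg had 2668 bp and 2192 bp, and Ms4a3 had 2887 bp and 2799 bp. At these genes the mark lay downstream of the start site, beginning 702 bp after it at Mpo with VTP50469 and 590 bp with DMSO. Tlr4 had 1177 bp with VTP50469 and 1858 bp with DMSO, while Fcgr3 had 1650 bp and 1068 bp, Tlr2 had 621 bp and 517 bp, and the oxidase genes Cyba, Ncf1 and Ncf4 had 1200 bp and 1010 bp, 1146 bp and 1021 bp, and 1809 bp and 1490 bp.

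A wider list of 50 other neutrophil and monocyte genes was set beside these. In NUP98-JARID1A their MLL1 length was 235% of DMSO (57749 bp with VTP50469, 24578 bp with DMSO), against 131% over all genes. Of the 25 without MLL1 in DMSO 12 were gained (48.0%) and of the 25 with it 1 was lost (4.00%), where 11.3% and 1.01% of all genes were. Of the 45 covered in either list 97.8% were longer and 2.22% shorter, where 76.9% and 23.0% of all genes were. The 3 with the largest difference in length were Alox5, the 5-lipoxygenase of leukotriene synthesis, with 3070 bp with VTP50469 and 1036 bp with DMSO, Cd63, a tetraspanin of granule membranes, with 2924 bp and 1000 bp, and Alox5ap, the partner of Alox5, with 3522 bp and 1696 bp. In the same pair the length was 222% of DMSO for 16 erythroid and megakaryocyte genes, 170% for 10 mast cell and basophil genes and 141% for 19 lymphoid genes, so lists of other lineages were longer too, and their part in the result was not tested. In NUP98-HOXD13 the 50 genes stood at 68.6% of DMSO, against 58.3% over all genes, and the 3 with the largest difference were Tyrobp, a signalling adaptor (298 bp with VTP50469, 1446 bp with DMSO), Myd88, the adaptor of Toll-like receptors (720 bp and 1844 bp), and Hk3, a hexokinase (304 bp and 1044 bp).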

How the data were processed

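Chromatin immunoprecipitation sequencing libraries with 37 bp paired-end reads were grouped by cell line, antibody, agent, dose and time per the labels. Per the submitters' processing notes, the tools were MACS2, bedtools, SAMtools, Picard 2.9.4, STAR 2.7.5a and bcl2fastq 2.20.0.422, and the genome build was mm10. What each tool did, its settings, and which input was the control of a list are not stated. The series has 24 libraries, of which 14 have a list and 10 are inputs, so regions were called per sample.

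The deposited lists give, for each region, an interval and summit in mm10, a score, a fold enrichment ratio and the −log10 of its p and q value, all computed by the authors. The fold was used only to describe regions within a list. Read counts are not part of these lists, so depth, and with it the precision of each list, is unknown.

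Gene spans and promoter windows came from RefSeq tables of GRCm38.p6, with 37 of the 42 genes matched to a window, and these tables give no exons or introns. A region counted at a gene end with at least 1 base within 1 kb of it. Bases were counted over the span plus 2 kb on both sides, with Python 3.11.15, numpy 2.4.6 and pandas 2.3.3, and figures were drawn with matplotlib 3.10.9. The interval arithmetic was tested on simulated data. With 1 library per condition no test was made, and shares over all 21627 genes are given as background.

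All granule and oxidase genes are named. Surface receptor and other effector genes are named where an end was lost or gained in an MLL1 or Menin pair or at least 1000 bp was covered in any list. The genes and lists were chosen with earlier results of these data known. Alternatives were stricter q values, lists of equal length, other windows and overlaps, and gene spans alone.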

Additional observations from a re-analysis of the deposited data

Results flagged for a closer look

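The covered length of the 42 genes for MLL1 with VTP50469, as a percent of DMSO, lay on both sides of 100 in different lines: 178% in NUP98-JARID1A, against 96.5% in NUP98-HOXA9, 60.5% in NUP98-HOXD13 and 8.58% in NUP98-NSD1, where all genes stood at 131%, 76.6%, 58.3% and 9.40%. The NUP98-HOXA9 value was 101% over gene spans alone. The NUP98-JARID1A value was 132% with lists of equal length, against 108% over all genes. The secondary and tertiary granule genes stood at 330% in NUP98-JARID1A and 104% in NUP98-HOXA9, but at 91.1% in NUP98-HOXD13, a value that was 104% at a −log10 q of at least 5 and 161% with lists of equal length. The surface receptor genes stood at 179% in NUP98-JARID1A, and at 97.4%, 55.7% and 0% in NUP98-HOXA9, NUP98-HOXD13 and NUP98-NSD1, the NUP98-HOXA9 value being 101% and 104% under those alternatives. Each line is 1 library per condition, so these differences between lines were not tested.

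Single genes also had a gene end lost in one line and gained in another, with the length given as VTP50469 minus DMSO. Mpo gained 361 bp in NUP98-HOXA9 and had -1370 bp in NUP98-JARID1A. Ltf had -274 bp in NUP98-HOXA9 and 991 bp in NUP98-JARID1A. Cd14 had 778 bp in NUP98-JARID1A and -540 bp in NUP98-NSD1. Anxa1 had -753 bp in NUP98-HOXD13 and 1095 bp in NUP98-JARID1A. With lists of equal length Mpo and Ltf kept these directions. Cd14 then had 0 bp in both lists of both lines, and Anxa1 had no region at an end in either list of NUP98-JARID1A, with 326 bp with VTP50469 and 394 bp with DMSO, and none in NUP98-HOXD13, with 0 bp and 313 bp. These differences were not tested either, and dose and time differ between some of the lines.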

How the results depend on the processing

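With lists of equal length, the number of genes lost was 0 for MLL1 in NUP98-HOXD13 (4 in full lists), 6 in NUP98-JARID1A (3), 1 in NUP98-NSD1 (5) and 1 for Menin in NUP98-HOXA9 (9), and the number gained was 6 (2) in NUP98-HOXD13, 5 (11) in NUP98-JARID1A and 1 (0) for Menin in NUP98-HOXA9. The covered length was then 31.9% of DMSO in NUP98-NSD1, 53.2% for its primary granule genes, 58.4% for Menin in NUP98-HOXA9, 104% for NUP98-HOXA9 surface receptors and 161% for NUP98-HOXD13 secondary and tertiary granule genes. The cut list holds fewer regions by construction. At a −log10 q of at least 5, 2 genes were lost for MLL1 in NUP98-HOXA9 and 2 for H3K4me3, the NUP98-HOXA9 surface receptors stood at 101% and the NUP98-HOXD13 secondary and tertiary granule genes at 104%. With the 5′ end alone, 2 genes were lost in NUP98-HOXA9 and 2 in NUP98-NSD1, and 0 were gained in NUP98-HOXD13, 1 for Menin in NUP98-HOXD13 and 1 for H3K4me3. A window of 2.5 kb gave 2 gains of Menin in NUP98-HOXD13. Gene spans alone gave 101% for MLL1 in NUP98-HOXA9 and 0% in NUP98-NSD1. The cause of these shifts was not tested, beyond the list lengths stated. An overlap of 100 bases, counting shared bases once, and the few-CpG shares under a cutoff of 3 CpG or stricter q values changed no result by more than 1.5 times, and these few-CpG alternatives were chosen after seeing the data. No paired analysis was possible because each condition has 1 library. Depth is unknown, and it limits what the absence of a region means.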
